A study of Rattus norvegicus with 7 samples.

Results

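The cytosolic chaperonin CCT was examined through its 8 subunit genes, Tcp1, Cct2, Cct3, Cct4, Cct5, Cct6a, Cct7 and Cct8, which were taken by gene symbol from the 17147 symbols measured in each library. All 8 were found, and all 8 passed the filter on low values that left 9467 genes for testing. The libraries came from rMSCs, primary mesenchymal stem cells grown, according to the methods, from the bone marrow of a single Sprague–Dawley rat, a male aged 6 weeks. For each library 20000 cells were seeded, and polyadenylated RNA was collected after 4 h of adhesion. The surfaces were ISB-P, a polyurethane copolymer of polycaprolactone with propoxylated isosorbide (3 libraries), PCL, a plain polycaprolactone film (3 libraries), and TCP, ordinary tissue culture plastic (1 library). Both films were 16 mm in diameter and sterilized with ethylene oxide gas. Nothing in the labels says whether the replicates were separate cultures, so p-values measure only the spread between these libraries.

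CCT, also called TRiC, is a barrel of 2 stacked rings in the cytosol, and each ring holds 1 copy of each of the 8 subunits. Unfolded proteins enter the cavity, ATP hydrolysis closes a built-in lid, and the client folds inside. Actins and tubulins are its best known obligate clients, which ties the complex to the cytoskeleton that a cell builds as it adheres and spreads. Since the ring needs every subunit, the question here was how large the change of the subunit transcripts was on each surface and how evenly it was shared among them.

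Levels are given in FPKM, fragments per kilobase of transcript and per fixed number of mapped fragments, a scale per length on which genes can be compared. The values of all genes summed to between 539393 and 660124 per library. These sums are not read depths, and the number of reads behind each value is unknown. All 9 mesenchymal markers checked, among them Thy1, Cd44 and Col1a1, were above 1 FPKM in every library, the endothelial markers summed to at most 0.565 FPKM, and of 7 blood cell markers used only Cd14, Csf1r and Cd68 exceeded 1 FPKM in every library. Film libraries that carry the same replicate number deviated from their film means together, at r = 0.887, 0.431 and 0.867 across genes for numbers 1, 2 and 3. The average for different numbers was -0.356. It adds no evidence, since centring each film on its own mean makes it negative when the same-number values are positive. The numbers were treated as pairing the films because of the positive values, a choice read from the same data that were then tested. Differences are given with and without the replicate number as a block. In bulk RNA, a different number of cells of a type and a different amount of RNA per cell cannot be told apart.

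The subunits of the side of the ring known for tighter ATP binding were Cct5, Tcp1, Cct4 and Cct2. Cct5, the epsilon subunit, stood at 267, 266 and 315 FPKM in PCL replicates 1, 2 and 3, at 336, 337 and 455 on ISB-P in the same order, and at 213 on TCP. Tcp1, the alpha subunit that gave the complex its older name, stood at 182, 247 and 304 FPKM on PCL, at 248, 319 and 525 on ISB-P and at 122 on TCP. The 3 ISB-P libraries of Cct5 all lay above its 3 PCL libraries, whereas for Tcp1 PCL replicate 3 exceeded ISB-P replicate 1. Cct4, the delta subunit, was measured at 194, 232 and 284 FPKM on PCL, 239, 270 and 388 on ISB-P and 159 on TCP. Cct2, the beta subunit, was measured at 148, 187 and 219 FPKM on PCL, 179, 220 and 301 on ISB-P and 108 on TCP. In both genes the films overlapped, with replicate 3 the highest library of each film and TCP the lowest library of all 7.

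On the other side of the ring lie Cct3, Cct6a, Cct7 and Cct8. Cct3, the gamma subunit, was 163, 161 and 214 FPKM on PCL, 203, 191 and 286 on ISB-P and 124 on TCP. Cct6a, the zeta subunit, was 119, 128 and 168 FPKM on PCL, 153, 153 and 253 on ISB-P and 83.7 on TCP. For both, replicate 3 again stood above the other libraries of its film, and PCL replicate 3 was above ISB-P replicates 1 and 2. Cct7, the eta subunit, was 162, 141 and 149 FPKM on PCL, 195, 174 and 183 on ISB-P and 99.8 on TCP. It was the exception among the 8 in having replicate 1 as the highest library of each film. It also had a small spread between replicates (coefficient of variation 6.80% on PCL and 5.87% on ISB-P) and, like Cct5, no overlap between the films. Cct8, the theta subunit, was the most variable on PCL, at 132, 209 and 245 FPKM, against 156, 234 and 345 on ISB-P and 93.6 on TCP. Its coefficient of variation was 29.4% on PCL and 38.8% on ISB-P.

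**Figure D1:**
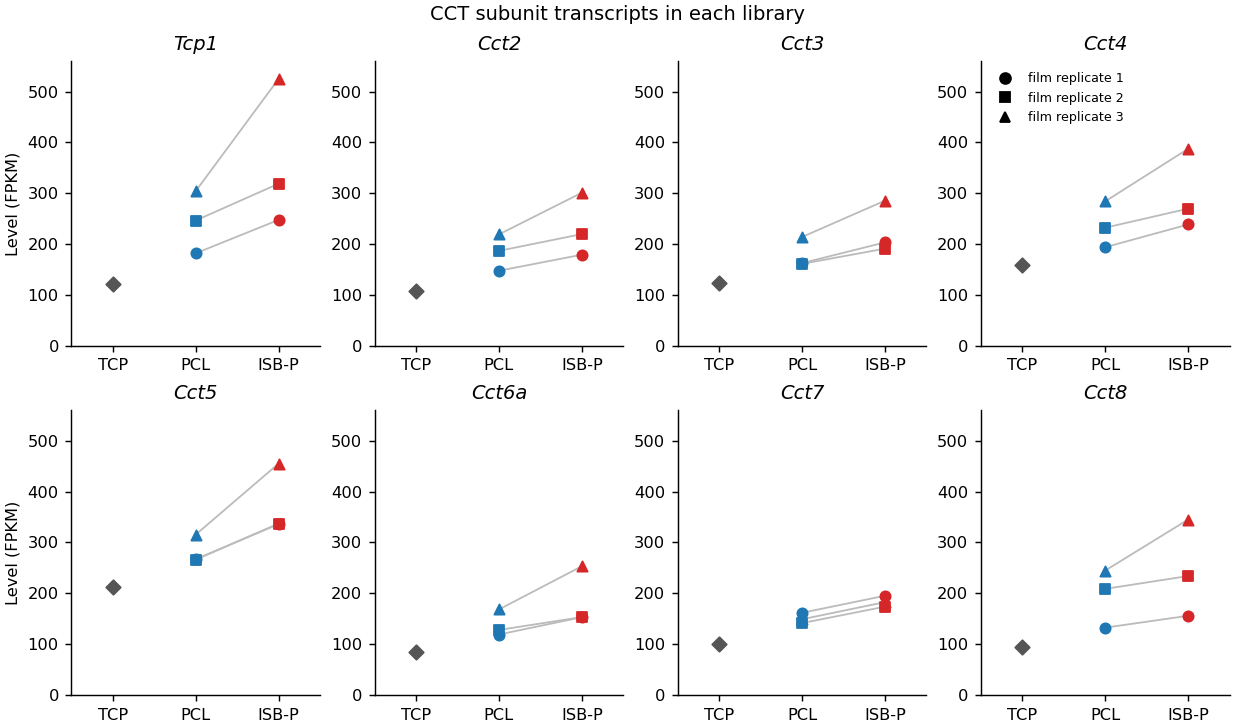
Level of each CCT subunit transcript in FPKM (vertical axis, from 0) in the TCP, PCL and ISB-P libraries. Symbols give the replicate number of a film library, and grey lines join libraries of the same number. Each of the 24 lines climbs from PCL to ISB-P, and the TCP library lies under every film library of its gene.

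The order of the subunits by level was Cct5, Tcp1, Cct4, Cct8, Cct2, Cct3, Cct7 and Cct6a over the films. For all 7 neighbouring pairs the gap between the means was smaller than the larger of the SDs of the pair on both films. These SDs are between libraries and leave out that both genes of a pair were read in the same libraries. On ISB-P the mean of Cct6a was above that of Cct7. Single libraries kept the order in 7 of 7 cases for Cct4 over Cct8 and for Cct3 over Cct7, but in only 4 of 7 for Cct8 over Cct2 and for Cct2 over Cct3. The highest subunit was 2.08 to 2.87 times the lowest within a library, and Cct5 was the highest in every library except ISB-P replicate 3, where Tcp1 was.

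In each replicate number all 8 subunits exceeded their PCL level on ISB-P, by 1.22-fold for Cct7 to 1.45-fold for Tcp1 on average over log2(FPKM + 1). Tcp1 averaged 244 ± 61.2 FPKM on PCL against 364 ± 144 on ISB-P (SD, n = 3), and Cct7 averaged 151 ± 10.2 against 184 ± 10.8. Summed over the 8, the level came to 1612 ± 269 FPKM on PCL against 2113 ± 546 on ISB-P (SD, n = 3), a ratio of 1.31. The difference in log2(FPKM + 1) was 0.53 for Tcp1, 0.40 for Cct6a and for Cct5, 0.33 for Cct3, 0.32 for Cct2 and for Cct4, 0.30 for Cct8 and 0.29 for Cct7. The median over the 8 was 0.32, beside 0.02 over all tested genes, and it was 0.16 without ISB-P replicate 3 and 0.48 without ISB-P replicate 1. It was 0.17 after quantile normalization and 0.21 after scaling to a common total. Cct8 depended most on single libraries, with a difference of 0.013 without ISB-P replicate 3 and 0.041 without PCL replicate 1, and Tcp1 had 0.23 without ISB-P replicate 3. Within replicates the subunits were higher on ISB-P in 24 of 24 comparisons, which rest on 3 pairs of libraries and are not independent. All 8 genes were thus higher in all 3 replicate numbers, as were 30.5% of all tested genes.

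Without the block no subunit passed limma's test at an adjusted p under 0.05, where 1.1% of tested genes were called higher and 0.623% lower on ISB-P. The adjusted p ranged from 0.387 for Cct5 to 0.896 for Cct8. In the same limma fit 2 of the 8, Cct5 and Cct7, had an unadjusted p under 0.05, beside 5.51% of tested genes called higher. The same pair were the genes whose films did not overlap, beside 8.17% of tested genes with all ISB-P libraries above all PCL libraries. An exact permutation test, two-sided, gave p = 0.1 for these 2 genes, the smallest that 3 libraries against 3 allow, and p = 0.2 to 0.5 for the other 6. No subunit passed the thresholds the study used, a fold change over 2 with an unadjusted p under 0.1 (and a film mean reaching 16 FPKM), which 0.613% of tested genes passed as higher.

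Once replicate number entered the fit as a block, all 8 subunits rose on ISB-P at an adjusted p under 0.05 in limma. In that fit 13% of tested genes were called higher and 11.4% lower. The adjusted p was 0.00335 for Tcp1 (difference 0.53, standard error 0.09), 0.00417 for Cct5 (standard error 0.07) and 0.0260 for Cct8 (standard error 0.08), and the other 5 lay between these. The 95% interval of the difference in the blocked fit ran from 0.34 to 0.73 for Tcp1 and from 0.12 to 0.48 for Cct8. These calls depend on the scaling: after quantile normalization the blocked fit called 3 subunits (Tcp1, Cct5 and Cct6a), and after scaling to a common total it called 6, without Cct7 and Cct8.

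The change between the films was more even over the subunits than the change between replicates. The SD over the 8 subunits of the log2 difference ISB-P minus PCL was 0.08, beside 0.31 over 5000 well expressed genes, those whose mean on one film or the other reached 16 FPKM. By replicate it was 0.06, 0.07 and 0.14 for numbers 1, 2 and 3, with medians of 0.31, 0.25 and 0.48. Replicate 3 thus had the largest median and the least even differences, reaching 0.78 for Tcp1 against 0.29 for Cct7. With ISB-P replicate 1 left out of the film means the SD over the subunits was 0.15. Between replicates 3 and 1 of the same film the subunits differed by a median of 0.52 on PCL and 0.71 on ISB-P, with SDs over the subunits of 0.31 and 0.39, beside 0.47 and 0.65 over the 5000 genes, whose replicates thus also differed less evenly than their films. Cct8 differed most between these replicates, by 0.88 on PCL and 1.14 on ISB-P, and Cct7 went the other way, by -0.12 and -0.10. Between replicates 2 and 1 the medians were 0.18 on PCL and 0.09 on ISB-P, with SDs over the subunits of 0.28 and 0.26. All these replicate differences are between single libraries, whereas the 0.08 is from means of 3. The film differences by replicate rest on the pairing chosen from these same data. On both films replicate 3 was the highest library for 7 of the 8 subunits, all but Cct7, and for 43.1% of all tested genes.

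**Figure D2:**
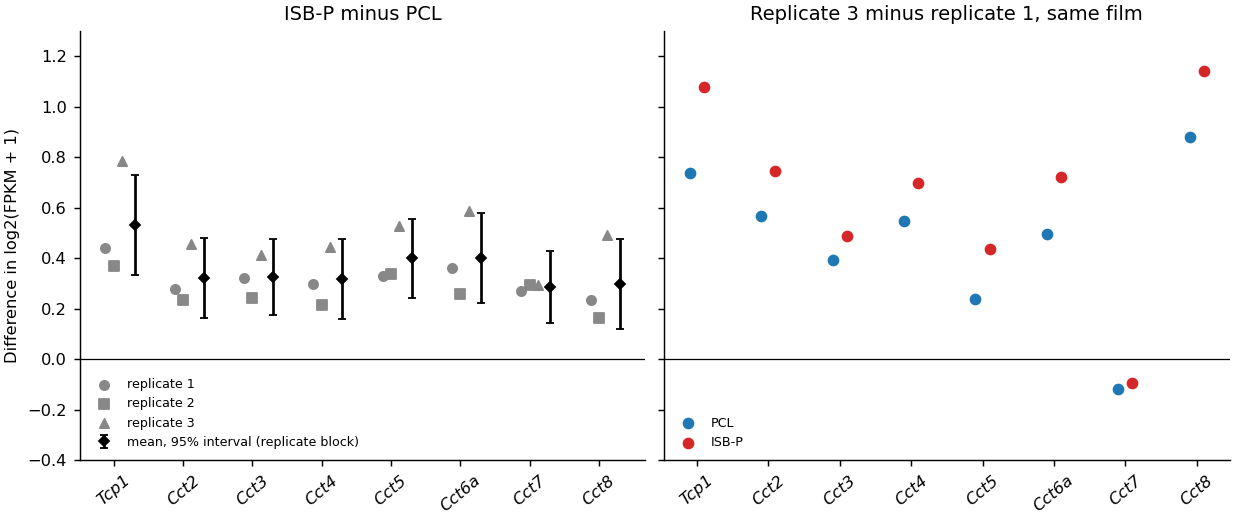
Differences in log2(FPKM + 1) for each subunit. On the left, ISB-P minus PCL within each replicate number (grey) and as the mean with its 95% interval from the blocked fit (black); on the right, replicate 3 minus replicate 1 on each film. The left values lie between 0.16 and 0.78, and the right ones spread from -0.12 to 1.14.

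Expressed as shares of the summed level of the 8 subunits, the pool had a similar make-up on both films in replicates 1 and 2, and less so in replicate 3. Between ISB-P and PCL the largest move of any share was 1.17, 1.11 and 3.17 percentage points in replicates 1, 2 and 3, each time an increase of Tcp1. Between replicates 1 and 3 the largest move was 3.99 points on PCL and 4.74 points on ISB-P, in both cases a lower share of Cct7. The share of Cct7 was 11.8% and 11.4% in replicate 1 of PCL and ISB-P and 7.84% and 6.68% in replicate 3. The share of Cct6a varied least in points, from 8.07% to 9.25% over the 7 libraries. Depth behind the shares is unknown, and no counting interval is given for them.

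**Figure D3:**
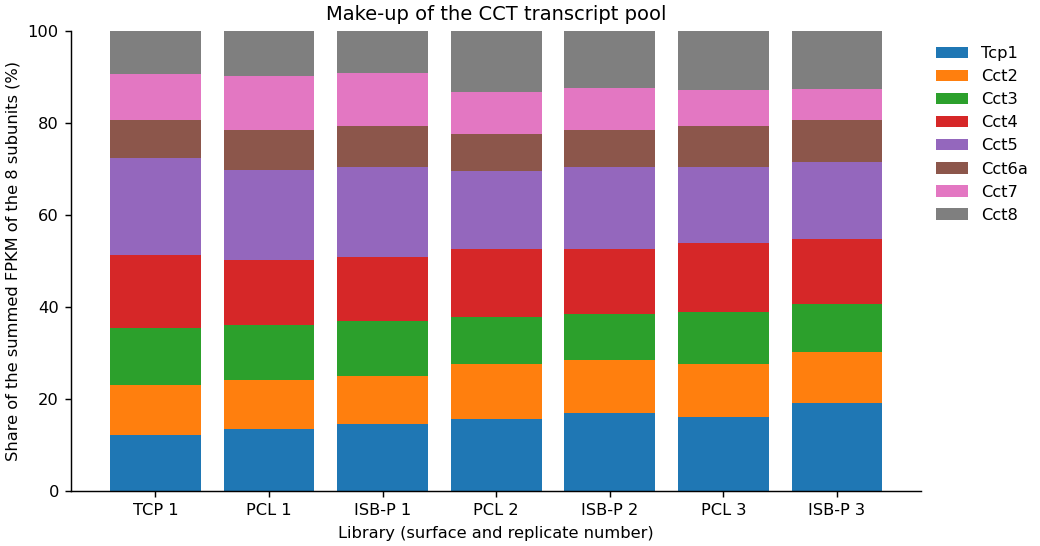
Share of each subunit in the summed FPKM of the 8 (stacked bars, percent), with the libraries ordered by replicate number. Neighbouring PCL and ISB-P bars are alike in replicates 1 and 2. In replicate 3 Tcp1 takes 16.0% on PCL and 19.2% on ISB-P. Between replicates, Cct8 takes 9.69% in PCL replicate 1 and 12.9% in PCL replicate 3.

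Set against culture plastic, every subunit was lower in the TCP library than in all 6 film libraries, as were 29.7% of tested genes. The TCP library is single, so these differences have no replicate check and no test. The ISB-P mean was over 1.5 times the TCP value for all 8 subunits (21% of tested genes) and over 2 times for Tcp1, Cct8, Cct6a and Cct2 (8.98% of tested genes). The PCL mean was over 1.5 times TCP for 5 subunits (14.1% of tested genes) and over 2 times only for Cct8 (5.56%), at 2.07-fold. After adding 1 FPKM to both values, Tcp1 was 2.96-fold above TCP on ISB-P and 1.99-fold on PCL, and Cct5 was 1.76-fold and 1.32-fold. The median log2 ratio to TCP was 1.00 for the ISB-P mean and 0.65 for the PCL mean, beside 0.22 and 0.16 over the 5000 genes. These 2 ratios share the TCP library, and the PCL libraries enter both the second ratio and the comparison of the films. They also depend on the scaling. With upper quartile scaling, quantile normalization and a common total, the ISB-P median over TCP was 0.87, 0.74 and 0.80. The PCL median over TCP was then 0.55, 0.55 and 0.58. The fold counts against TCP were made only on the values as deposited. Of the summed FPKM of all genes, the 8 subunits made up 0.186% on TCP, 0.252% to 0.317% on PCL and 0.288% to 0.414% on ISB-P.

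The TCP library also differed from the films in markers of other cells, whose part in this result was not tested. The 7 blood cell markers used summed to 59.02 FPKM on TCP, 23.2 to 26.7 on PCL and 19.4 to 22.1 on ISB-P, with Hbb at 0 in every library. The 3 adipocyte markers summed to 75.9 FPKM on TCP, 19.95 to 32.02 on PCL and 23.6 to 41.0 on ISB-P, nearly all of it Fabp4.

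**Figure D4:**
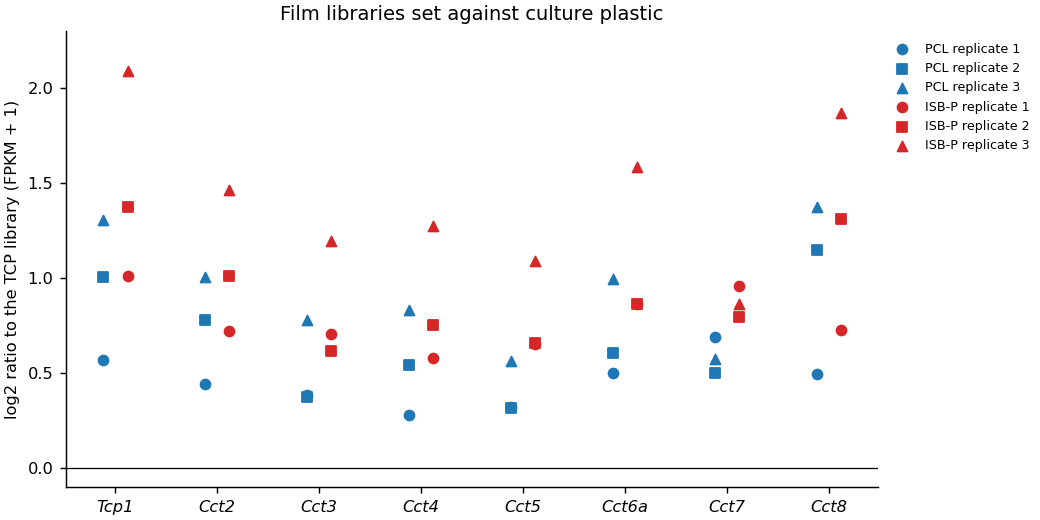
log2 ratio of each film library to the single TCP library for each subunit, after adding 1 FPKM to both. All ratios are above 0, lowest for Cct4 in PCL replicate 1, at 0.28, and highest for Tcp1 in ISB-P replicate 3, at 2.09.

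Partners and clients of the chaperonin were read from lists drawn up by hand. Prefoldin, a jellyfish-shaped complex that hands unfolded actin and tubulin to CCT, had 4 of its 6 genes tested, and 0 passed limma's adjusted threshold, with or without the block, with 0 at an unadjusted p under 0.05. Their median log2 difference was 0.11, and the largest were 0.19 for Pfdn2 and 0.12 for Pfdn1. Of the phosducin-like partners, which bind CCT and tune its folding of clients, 3 were tested and 0 passed in either limma fit, with 0 at an unadjusted p under 0.05. Txndc9 had the largest difference of these, 0.26, at 56.5 to 110 FPKM in the PCL libraries and 61.1 to 160 in those of ISB-P, and Pdcl3 followed with 0.17. Tubulin folding cofactors take tubulin from CCT and assemble the dimer. Of 5 tested, 0 passed limma without the block, with 0 at an unadjusted p under 0.05. With the block 1 was called higher, Tbce, beside 13% of tested genes. Tbce stood at 30.8 ± 6.40 FPKM on PCL and 44.9 ± 15.2 on ISB-P (SD, n = 3). Its log2 difference was 0.50, with an adjusted p = 0.00465 in the blocked limma fit. Tbcc had a difference of 0.34 but was lower on ISB-P in replicate 3.

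Tubulins and actins are the clients made in the largest amounts. Among 9 tested alpha- and beta-tubulin genes the median log2 difference was 0.13. Without the block 1 was called higher, Tubb3, beside 1.1% of tested genes. Tubb3 stood at 5.52, 5.40 and 3.95 FPKM on ISB-P and 2.00, 1.85 and 1.25 on PCL (log2 difference 1.14, standard error 0.17, adjusted p = 0.0287 in limma). It is a minor tubulin here, at 0.965 FPKM on TCP, and reads shared among the close tubulin paralogs could have been split between them. Tubb2a followed with a difference of 0.27. Some major tubulins differed more from the single TCP library than between the films, without a test. Tuba1b was 174 FPKM on TCP against a mean of 519 on each film. Tubb5 was 518 FPKM on TCP against means of 929 on PCL and 853 on ISB-P. Others lay closer to TCP: Tubb6 was 320 FPKM there against 343 on PCL and 356 on ISB-P, and Tubb2a was 86.5 against 82.4 and 101. Among 5 tested actin genes the median was 0.00, and the 2 largest differences were negative. Actg1, cytoplasmic gamma-actin, was 2649, 2755 and 2560 FPKM on PCL and 2234, 2234 and 2049 on ISB-P, lower in every ISB-P library (log2 difference -0.29, adjusted p = 0.244 without and 0.00804 with the block in limma). Without the block 0 of the 5 actins passed, with 1 at an unadjusted p under 0.05. With the block only Actg1 was called lower, beside 11.4% of tested genes. Actb, cytoplasmic beta-actin, had a difference of -0.20 and did not pass in either fit.

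Of 16 other known clients, 0 passed limma without the block (1 at an unadjusted p under 0.05). With the block 1 was called higher (Ppp2r2d), beside 13% of tested genes, and 5 lower (Plk1, Cdc20, Gnb4, Fzr1 and Ccne1), beside 11.4%. The largest differences were those of Plk1, a mitotic kinase, and Cdc20, a WD40-repeat activator of the anaphase-promoting complex. Plk1 was 49.2 ± 1.26 FPKM on PCL and 35.7 ± 3.61 on ISB-P (SD, n = 3; log2 difference -0.46, adjusted p = 0.178 without and 0.00412 with the block in limma), and Cdc20 was 68.7 ± 8.61 and 52.6 ± 7.62 (log2 difference -0.38, blocked adjusted p = 0.00546). Both were far lower on TCP, at 5.66 and 9.65 FPKM. Cct6b, the paralog of Cct6a known from testis, stayed between 0.206 and 1.12 FPKM and was not tested. The chaperonin-like genes Mkks and Bbs10 had differences of 0.11 and -0.26 and did not pass in either fit.

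The mitochondrial chaperonin is built from Hspd1, which forms its ring, and Hspe1, its lid. Hspe1 was 251, 239 and 253 FPKM on PCL, 410, 425 and 452 on ISB-P and 144 on TCP (log2 difference 0.79, standard error 0.11, adjusted p = 0.0220 in limma). Hspd1 was 250, 322 and 445 FPKM on PCL and 501, 639 and 1216 on ISB-P (log2 difference 1.14, adjusted p = 0.232 without and 9.73e-05 with the block in limma). The 7 heat shock genes taken for reference are all among those the paper picked out as raised on ISB-P in these same libraries. Their calls and sizes are therefore no independent result. Of the 7, 6 passed without the block, all higher on ISB-P, with a median log2 difference of 1.86 over the 7. Hsp90aa1 had an adjusted p of 0.0922 in limma. Hspa1a had the largest difference, 5.47, followed by Hsph1 at 2.38, Dnaja1 at 2.10, Dnajb1 at 1.86, Hsp90aa1 at 1.70, Hspa8 at 1.40 and Hsp90ab1 at 0.93. The largest difference among the CCT subunits, 0.53 for Tcp1, was smaller than the smallest of these. The difference between CCT and these genes, which had been picked for being raised, was not tested.

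**Figure D5:**
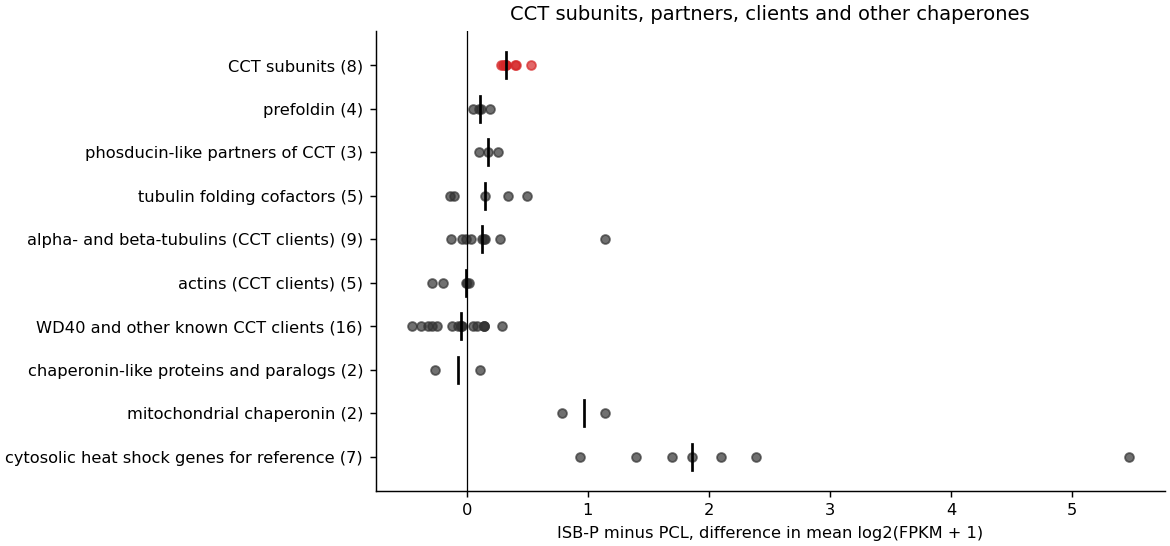
Difference in mean log2(FPKM + 1), ISB-P minus PCL, of each tested gene, by list, with the number tested in parentheses and the median as a bar. The CCT subunits (red) lie between 0.29 and 0.53, the actins between -0.29 and 0.02, and the heat shock genes between 0.93 and 5.47.

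The promoters of the subunits were searched for heat shock elements, since the subunits moved together between the films, the sites of the heat shock factors, built of GAA units in alternating orientation. The letters TTCNNGAA and GAANNTTC, each its own reverse complement so that both strands are covered, were looked for in the 250 bases before each RefSeq transcription start of the GRCr8 assembly. All 8 subunits were matched by symbol. TTCNNGAA stood in 2 of the 8, Cct5 and Cct6a, and in 7.48% of 33469 rat promoters, and GAANNTTC in 0 of the 8 and in 7.23% of all promoters. At least 1 of these forms stood in 2 of the 8 and in 13.5% of all promoters. The sequences of Cct5 and Cct6a are shown with the match in capitals. Beside them stand Tcp1, which had the largest difference and no match, and Hspe1, where 3 overlapping matches make 1 longer run. They read 5′ to 3′ on the strand of the gene, at chr2:84313774-84314023 (minus strand) for Cct5, chr12:32519073-32519322 (minus) for Cct6a, chr1:50384528-50384777 (minus) for Tcp1 and chr9:64084077-64084326 (plus) for Hspe1.
Cct5: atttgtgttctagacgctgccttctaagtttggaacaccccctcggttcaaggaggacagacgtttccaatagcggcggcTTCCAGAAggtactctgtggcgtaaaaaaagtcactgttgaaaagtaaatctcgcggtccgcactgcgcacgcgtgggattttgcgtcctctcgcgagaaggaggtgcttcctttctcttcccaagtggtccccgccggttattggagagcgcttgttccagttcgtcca
Cct6a: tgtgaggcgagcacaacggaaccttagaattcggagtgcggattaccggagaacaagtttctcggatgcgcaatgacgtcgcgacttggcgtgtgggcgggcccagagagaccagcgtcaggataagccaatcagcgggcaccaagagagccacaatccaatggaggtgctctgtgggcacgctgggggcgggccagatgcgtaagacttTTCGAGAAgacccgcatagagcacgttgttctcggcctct
Tcp1: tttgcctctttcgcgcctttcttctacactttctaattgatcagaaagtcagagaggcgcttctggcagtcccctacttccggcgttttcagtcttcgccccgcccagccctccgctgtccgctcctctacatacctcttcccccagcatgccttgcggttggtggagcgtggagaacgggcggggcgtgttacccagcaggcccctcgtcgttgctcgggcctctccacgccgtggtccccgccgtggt
Hspe1: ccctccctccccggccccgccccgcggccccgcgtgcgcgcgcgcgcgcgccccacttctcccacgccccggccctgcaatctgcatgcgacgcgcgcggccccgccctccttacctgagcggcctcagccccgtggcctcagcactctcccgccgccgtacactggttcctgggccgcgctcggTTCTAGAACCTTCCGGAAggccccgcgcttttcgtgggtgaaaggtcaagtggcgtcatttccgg

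The match of Cct5 began 170 bases before the start and that of Cct6a 40 bases before it. Both differed from the Hspe1 run in holding a single pair of units. So did Dnajb1, searched in the same way, whose only match, GAANNTTC, began 11 bases before its start and whose log2 difference was 1.86. Hspd1, Hspa8 and Hsph1 held overlapping matches. The CCAAT box (CCAAT or its reverse complement) stood in 5 of the 8 subunits, Cct3, Cct5, Cct6a, Cct7 and Cct8, and in 34% of all promoters, and the GC box (GGGCGG or its reverse complement) in 5 of the 8, Tcp1, Cct2, Cct3, Cct6a and Cct7, and in 30.5% of all promoters. A match of letters is not evidence of binding, and a window without one may hold a degenerate site.

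Across the 7 libraries the subunits followed each other closely. The correlation of log2(FPKM + 1) between a subunit and the mean of the other 7 was 0.93 to 0.99 for all but Cct7, for which it was 0.73. Among the 4992 other well expressed genes, the 5 most like the mean of the subunits were Wdr43, Nsun2, Psmb7, Arl4a and Ufd1l, with r from 0.996 to 0.997. Psmb7, a proteasome subunit, stood at 142 FPKM on TCP, at 176 to 225 on PCL and at 204 to 281 on ISB-P. Wdr43, a ribosome biogenesis factor, stood at 30.05 FPKM on TCP, at 42.7 to 63.7 on PCL and at 55.9 to 91.9 on ISB-P. These correlations describe 7 libraries that share a surface or a replicate number, and they carry no test. Other genes reached values as high as those of the subunits, so this closeness is not particular to CCT.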

How the data were processed

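The authors made strand-specific TruSeq libraries, sequenced them as paired ends and deposited 1 file for every library, listing gene symbols and values. The values were read as FPKM, since they are not whole numbers, sum differently in each library, and Cuffdiff 2.2.1 is among the submitters' processing notes, with bcl2fastq 2.20.0.422, cutadapt 1.18, TopHat2 2.0.13 and the rn5 build. The paper names ExDEGA. The header states no unit, and how FPKM were scaled between libraries, or reads shared by paralogs assigned, is not given in the sources used here. Among genes under 0.06 FPKM, steps of single reads were too blurred to give depth: at most 45.5% of ratios between 2 libraries fell in a log2 window of 0.15. Depth is therefore unknown, and precision rests on 3 libraries per film.

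Groups and replicate numbers came from the sample titles. Genes reaching 1 FPKM in 3 or more film libraries were fitted with limma 3.58.1 in R 4.3.3 (eBayes with trend) on log2(FPKM + 1), a scale that understates the change of low genes, two-sided, with Benjamini-Hochberg adjustment over all 9467 genes. The fit was run on data simulated from the blocked model itself. That checks the code and not whether the model suits these libraries. The pairing was accepted because every same-numbered pair correlated above 0.1. Alternatives were a pseudocount of 0.1, other filters, 3 scalings, the block, TCP in the fit and each library left out; the block combined with scalings or with a replicate number left out was added after the data were seen. The members and lists were chosen with earlier results of these data known. Named genes were the 8 subunits, from each list the genes past the threshold and the 2 largest differences, and the 5 genes most like the subunits. Of the listed genes, Vbp1, Pfdn4, Pdcl2, Tubb1, Bbs12 and Cd79a were not analysed here, and 1 further blood cell marker is not reported here. Promoter sequences are from RefSeq (GRCr8), another build than rn5, and were matched by symbol. Figures used matplotlib 3.10.9.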

Additional observations from a re-analysis of the deposited data

How the results depend on the processing

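No setting reversed the difference of a subunit, though the block, the filters and TCP in the fit cannot move it. With 1 library left out it fell as low as 0.013, for Cct8 without ISB-P replicate 3. Without the block, 0 of the 8 passed under any scaling, filter, pseudocount, TCP in the fit or left-out library. The replicate block gave 8, and 8 with upper quartile scaling, 3 with quantile normalization and 6 with scaling to a common total, where 12.1%, 11.4% and 7.52% of tested genes were called higher. With the block and 1 replicate number left out, 7 passed without replicate 1, 7 without replicate 2 and 8 without replicate 3, where 9.60%, 12.5% and 18.7% of tested genes were called higher. Cct7 was the subunit lost without replicates 1 and 2, at adjusted p = 0.0849 and 0.0784 in limma. Scaling to a common total lowered the median of all tested genes from 0.02 to -0.09, and the median of the subunits was 0.30 with upper quartile scaling. The number of subunits without overlap between the films fell from 2 to 1 under upper quartile scaling, quantile normalization and a common total, and lay between 2 and 6 with 1 library left out. It was 6 without PCL replicate 3 and 4 without ISB-P replicate 1. The SD over the subunits of the film difference ranged from 0.0892 to 0.152 with 1 library left out. The cause was not tested. Depth being unknown, no smallest detectable difference is given.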
